A study of Mus musculus with 8 samples.

Results

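The genes described here encode the respiratory chain and the ATP synthase of the mitochondrial inner membrane. They were chosen by symbol alone: every probe set with a single gene symbol that starts with Nduf, Uqcr, Cox4, Cox5, Cox6, Cox7, Cox8 or Atp5, or is Sdha, Sdhb, Sdhc, Sdhd, Cyc1 or Cycs. The rule found 184 of the 45101 probe sets on the array, for 92 of 18194 genes. Of these genes 34 belong to complex I (NADH dehydrogenase), 4 to complex II, 9 to complex III, 1 is cytochrome c (Cycs), 19 belong to complex IV and 17 to complex V (ATP synthase), and 8 are Ndufaf assembly factors of complex I. A total of 90 genes were bright enough to be tested. The other 2, Cox7b2 (a complex IV isoform) and Ndufb4 (a complex I subunit), had only probe sets that were too dim, and whether probe sets with several symbols or none read these genes was not examined. No tested gene had an array at the lower signal limit.

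The series holds 8 arrays, 1 for each male C57BL/6J mouse, in 4 groups of 2, hybridised with RNA of epididymal fat, a visceral fat pad. Telmisartan mice (HFD+Tel) ate a high-fat diet with 30% of calories from fat for 24 weeks and then drank telmisartan at about 3 mg/kg/day for 5 weeks, candesartan mice (HFD+Can) had the same diet and then candesartan at the same dose, HFD mice had the diet and no drug, and chow mice had 10% of their calories as fat. All mice were bought at 6 weeks of age, and no chow mice received a drug. Both drugs block the angiotensin II type 1 receptor, and telmisartan is also known as a partial activator of the nuclear receptor PPAR gamma. Signals are arbitrary fluorescence units after scaling of the arrays to a common trimmed mean, and they serve to compare arrays for a gene, not one gene with another.

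Electrons from NADH enter the chain at complex I and electrons from succinate at complex II. They pass through ubiquinone to complex III, through cytochrome c to complex IV and there to oxygen. Complexes I, III and IV pump protons, and complex V uses the gradient to make ATP. Nearly all of their subunits are encoded in the nucleus, and the transcription factors NRF1, GABP, ERR alpha and YY1 with the coactivators of the PGC-1 family are known to drive many of these genes together. In white fat the chain serves fat cell differentiation and fatty acid handling, and brown fat holds far more of it.

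Promoter windows, from 250 bases before to 50 after the gene start (RefSeq, build GRCm38.p6), were listed for 75 of the 92 genes. They were searched on both strands for exact matches to 4 cores: NRF1 (CGCATGCG), GABP and other ETS factors (CCGGAAGT), ERR alpha (TCAAGGTCA) and YY1 (AAGATGGC). The NRF1 core stood in 11 of 75 genes (14.7%), against 2.07% of 27025 genes of the table. The YY1 core stood in 10 genes (13.3%, against 3.19%), the GABP core in 5 (6.67%, against 4.31%) and the ERR alpha core in 2 (2.67%, against 0.466%). At least 1 core was found in 26 genes (34.7%, against 9.48%), and in 0 windows did matches to different cores overlap. By complex, the NRF1 core was found in 4 of 15 complex V genes, 2 of 5 complex III genes, 1 of 13 complex IV genes, 1 of 31 complex I genes, 0 of 3 complex II genes, 2 of 7 Ndufaf genes and Cycs, and the YY1 core in 6 complex I genes and 3 complex V genes and 1 Ndufaf gene. A match describes the letters and is not evidence of binding. The windows below are those of the 4 genes called lower in HFD fat, and of Cycs and Uqcr11, which hold the NRF1 core. They are written in the direction of the gene with matched cores in capitals: YY1 in Ndufb8, GABP on the reverse strand at the first transcribed base of Ndufs3, NRF1 in Cycs, GABP and then NRF1 in Uqcr11, and none of the 4 in Ndufv1 and Uqcrfs1.
Ndufb8 promoter, chr19:44555393-44555692, minus strand: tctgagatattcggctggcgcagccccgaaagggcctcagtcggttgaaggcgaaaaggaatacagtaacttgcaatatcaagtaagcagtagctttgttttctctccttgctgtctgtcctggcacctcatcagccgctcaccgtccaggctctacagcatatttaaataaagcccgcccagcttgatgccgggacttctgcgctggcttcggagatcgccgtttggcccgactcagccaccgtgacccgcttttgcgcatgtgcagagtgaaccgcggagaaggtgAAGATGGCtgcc
Ndufs3 promoter, chr2:90904672-90904971, minus strand: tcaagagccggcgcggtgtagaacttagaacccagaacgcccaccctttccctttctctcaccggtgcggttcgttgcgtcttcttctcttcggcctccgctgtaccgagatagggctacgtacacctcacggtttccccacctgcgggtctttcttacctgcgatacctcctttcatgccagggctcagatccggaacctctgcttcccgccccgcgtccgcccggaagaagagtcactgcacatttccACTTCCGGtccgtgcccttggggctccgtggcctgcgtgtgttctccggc
Ndufv1 promoter, chr19:4012706-4013005, minus strand: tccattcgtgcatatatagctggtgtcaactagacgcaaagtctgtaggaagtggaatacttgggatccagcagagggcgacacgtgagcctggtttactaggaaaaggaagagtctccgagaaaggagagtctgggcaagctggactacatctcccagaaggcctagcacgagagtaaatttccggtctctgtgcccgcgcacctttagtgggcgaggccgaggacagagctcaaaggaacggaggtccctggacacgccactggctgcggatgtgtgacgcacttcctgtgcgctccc
Uqcrfs1 promoter, chr13:30545267-30545566, minus strand: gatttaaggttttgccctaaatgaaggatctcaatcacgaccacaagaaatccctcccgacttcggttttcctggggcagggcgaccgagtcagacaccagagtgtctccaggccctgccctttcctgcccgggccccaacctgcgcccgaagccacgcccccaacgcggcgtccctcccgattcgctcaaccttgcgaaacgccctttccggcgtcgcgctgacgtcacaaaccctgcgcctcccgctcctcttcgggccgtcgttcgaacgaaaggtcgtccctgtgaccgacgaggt
Cycs promoter, chr6:50566520-50566819, minus strand: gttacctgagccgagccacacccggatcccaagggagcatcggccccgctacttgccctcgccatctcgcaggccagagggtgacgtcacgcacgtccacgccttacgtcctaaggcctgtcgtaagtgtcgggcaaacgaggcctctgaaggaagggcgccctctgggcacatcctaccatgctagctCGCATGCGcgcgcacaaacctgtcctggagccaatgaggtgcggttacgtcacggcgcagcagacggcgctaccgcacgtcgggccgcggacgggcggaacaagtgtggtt
Uqcr11 promoter, chr10:80406772-80407071, minus strand: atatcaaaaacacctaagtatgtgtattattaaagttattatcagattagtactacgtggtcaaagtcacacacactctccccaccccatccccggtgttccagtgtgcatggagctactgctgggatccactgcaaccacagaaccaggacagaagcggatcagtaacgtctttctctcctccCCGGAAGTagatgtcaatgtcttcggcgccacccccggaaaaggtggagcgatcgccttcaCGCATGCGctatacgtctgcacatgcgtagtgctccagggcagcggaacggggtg

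The first comparison is that of the diets, HFD against chow without drug. Signals of 85 of the 90 tested genes were on average lower in HFD than in chow fat, whereas 51.5% of all 11232 genes tested lay below 0. The median log2 fold change was −0.32 over the 90 genes and −0.01 over all genes, and the single-gene differences lay between −0.86 (Cox7a1) and 1.18 (Cox6a2). Few of them passed the test of all genes (limma, Benjamini-Hochberg adjusted p under 0.05). It called 4 genes lower (Ndufb8, Ndufv1, Ndufs3 and Uqcrfs1, against 2.95% of all genes called lower) and 1 higher (Ndufb1, against 5.15%). At an unadjusted p under 0.05, 44 genes were lower (background 12.3%) and 2 higher (background 11.9%). Both HFD arrays lay below both chow arrays for 70 of 90 genes (background 30.3%) and above them for 3 (background 27.8%). In whole tissue, fewer cells of a type and less RNA per cell cannot be told apart.

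The 2 chow mice differed from each other in the same genes. Chow array 1 was higher than chow array 2 in 87 of 90 genes, by a median of 0.29 on the log2 scale, and by 0.0035 over all genes. HFD array 1 was lower than chow array 1 in 85 of 90 genes (median −0.46) and lower than chow array 2 in 75 (median −0.18). For HFD array 2 these numbers were 86 (−0.50) and 75 (−0.21). Each HFD array thus lay below each chow array in most genes, and the size of the difference depended on the chow mouse. Without chow array 1, 74 of 90 genes lay below 0, the median was −0.22 and 0 genes were called. Without chow array 2, 85 lay below 0, the median was −0.48 and 16 were called lower. The number called lower was 0 without either HFD array or either candesartan array, and 19 and 20 without telmisartan array 1 and 2, since the 4 groups share 1 estimate of the spread.

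**Figure D1:**
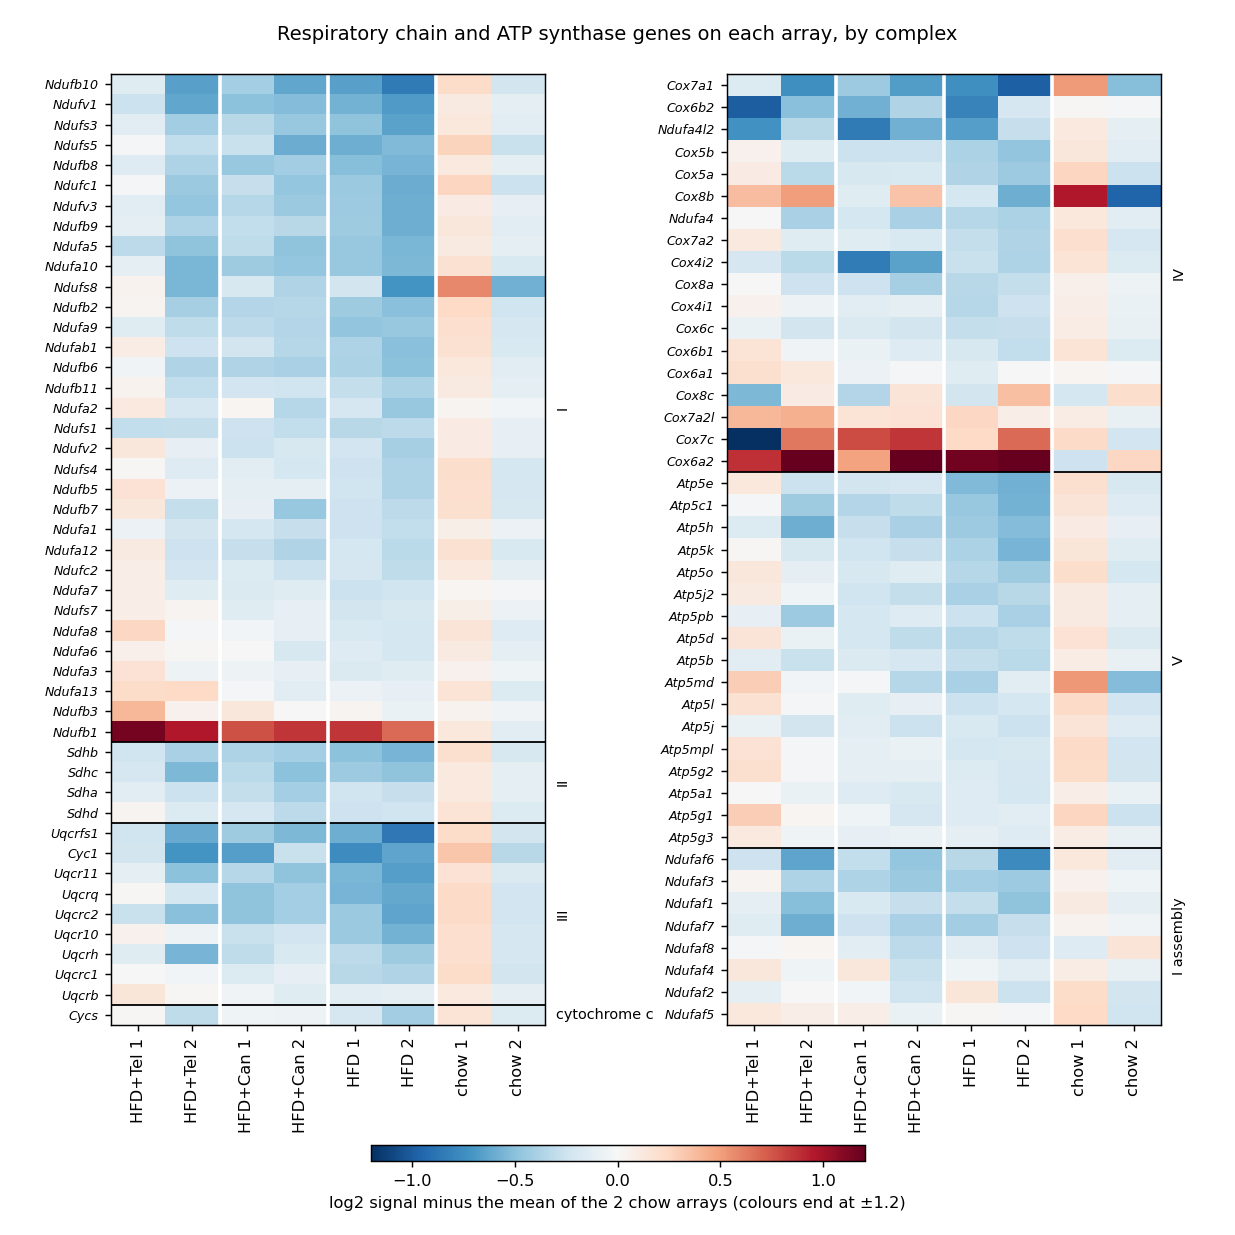
Log2 signal of the 90 tested genes (rows, grouped by complex and sorted by the HFD to chow difference) on the 8 arrays (columns), minus the mean of both chow arrays; blue is lower and red higher. Most rows are blue on both HFD arrays and red on chow array 1, and Ndufb1 and Cox6a2 are red on all 6 arrays of the high-fat diet groups.

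Complex III, which moves electrons from ubiquinone to cytochrome c, had the lowest median of the 5 complexes. Its 9 tested genes all lay below 0 with a median of −0.54. Of these, 7 had an unadjusted p under 0.05 (background 12.3%) and 1 was called (background 2.95%). The medians of the other complexes were −0.36 for complex II (4 of 4 genes below 0), −0.33 for complex I (32 of 33), −0.32 for complex IV (14 of 18) and −0.31 for complex V (17 of 17). On single arrays, the complex III median minus the median of the other subunits was −0.16 and −0.28 in HFD fat, against 0.08 and −0.08 in chow fat. These arrays do not overlap, and an exact permutation test of 2 against 2 arrays cannot give a p under 0.333. The same difference lay between −0.07 and 0.12 on the HFD arrays for complexes I, II, IV and V. For complexes IV and V the arrays did not overlap either, with HFD above chow. Complex IV was at 0.038 and 0.115 in HFD fat, against −0.0355 and 0.0355 in chow fat. Complex V was at 0.0282 and 0.0773 in HFD fat, against 0.0177 and −0.0177 in chow fat. The complex III median was −0.31 without chow array 1 and −0.77 without chow array 2.

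**Figure D2:**
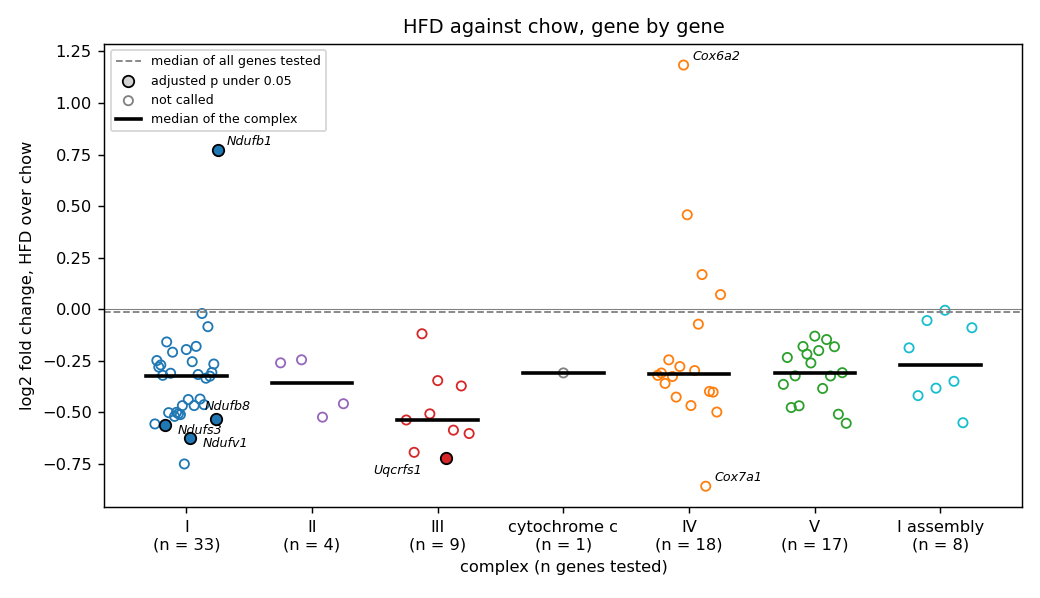
Log2 fold change of HFD over chow for each tested gene (points; filled where called) by complex, with the median of each complex (black bar) and of all genes tested (dashed line). The complex III median of −0.54 is the lowest, and complex IV has the widest range, from −0.86 to 1.18.

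Uqcrfs1 encodes the Rieske iron-sulphur protein, the mobile electron carrier of complex III. Its signal was 2923 and 2433 in HFD fat, against 5113 and 3781 in chow fat. Both HFD mice were lower than both chow mice, and the gene was called lower (log2 fold change −0.72, 95% interval −1.14 to −0.31, adjusted p = 0.0475). Cyc1, cytochrome c1 and the other redox subunit encoded in the nucleus, read 2550.3 and 2776 in HFD fat, against 5436 and 3412 in chow fat. Its difference of −0.69 was nearly as large, but the chow mice stood further apart and it was not called (adjusted p = 0.127). The core proteins Uqcrc1 (−0.35) and Uqcrc2 (−0.54) and the small subunits Uqcr11 (−0.60), Uqcrq (−0.59) and Uqcr10 (−0.51) had adjusted p values of 0.0571 to 0.199. Uqcrh, the hinge protein, differed by −0.37. Uqcrb, which binds ubiquinone, differed by −0.12 and its HFD and chow arrays overlapped, but its dimmer probe set differed by −0.51, with 2590.0 and 2069 in HFD fat, against 3595 and 3025 in chow fat.

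Complex I held the other calls. Ndufv1 carries the flavin and the NADH site, and gave 2169 and 2007 in HFD fat, against 3479 and 2982 in chow fat. All HFD values lay below all chow values, and the gene was called (−0.63, 95% interval −0.96 to −0.29, adjusted p = 0.0385). Ndufs3, a core subunit next to the ubiquinone site, gave 2601 and 2321 in HFD fat, against 3960 and 3332 in chow fat (−0.56, −0.89 to −0.24, adjusted p = 0.0491). Ndufb8, an accessory subunit of the membrane arm, gave 3759 and 3651 in HFD fat, against 5814 and 4941 in chow fat (−0.53, −0.81 to −0.25, adjusted p = 0.0355). In both genes the groups were apart. Ndufb10, also of the membrane arm, had the lowest difference of complex I and did not pass the test, with 1697 and 1479 in HFD fat, against 3110 and 2285 in chow fat (−0.75, adjusted p = 0.0619).

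The 6 core subunits of complex I tested belong to the arm in the matrix, where NADH is oxidised and ubiquinone reduced. All 6 lay below 0, with a median of −0.39. Ndufs1, the subunit with the most iron-sulphur clusters, differed by −0.32 (adjusted p = 0.147) and Ndufs7 by −0.21. The 27 accessory subunits tested had a median of −0.33, and 26 of them lay below 0. Signals of Ndufa13 (−0.09) and Ndufb3 (−0.02) overlapped between the diets. The 8 assembly factors Ndufaf1 to Ndufaf8 help to build complex I and do not stay in it. They all lay below 0 with a median of −0.27, from −0.55 for Ndufaf6 to −0.01 for Ndufaf5. Of these factors 0 were called and 2 had an unadjusted p under 0.05 (background 12.3%).

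Ndufb1, a small accessory subunit of the membrane arm, was the 1 gene called higher. It read 238 and 209 in telmisartan fat, 182 and 195 in candesartan fat and 195 and 172 in HFD fat, against 117 and 98.3 in chow fat. All 6 arrays of the high-fat groups lay above both chow arrays. The gene was called higher in HFD fat (0.77, 95% interval 0.37 to 1.17, adjusted p = 0.0344), in telmisartan fat (1.06, 0.65 to 1.46, adjusted p = 0.00982) and in candesartan fat (0.81, 0.41 to 1.21, adjusted p = 0.0317), 3 comparisons that share the chow arrays. It was measured by 1 probe set past the filter. The call in HFD fat was lost in 10 of 20 alternatives (highest adjusted p 0.231) and that in candesartan fat in 8 (highest adjusted p 0.243), in both cases with median centring, with no filter and when any one chow, HFD or candesartan array was left out. The call in telmisartan fat was lost in 1 (0.0762, with only both groups compared in the fit).

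Complex II is the succinate dehydrogenase that also works in the citric acid cycle. All 4 of its genes were lower on both HFD arrays than on both chow arrays (background 30.3%). Sdhb, the iron-sulphur subunit, read 3419 and 3256 in HFD fat, against 5487 and 4194 in chow fat (−0.52, adjusted p = 0.057). Sdha, the flavoprotein, differed by −0.26, and the membrane anchors Sdhc and Sdhd by −0.46 and −0.25. None of the 4 was called, and 2 had an unadjusted p under 0.05 (background 12.3%). Cycs, the mobile carrier between complexes III and IV, read 5439 and 4686 in HFD fat, against 7019 and 5575 in chow fat. Its groups did not overlap, but the difference of −0.31 was not called (adjusted p = 0.262). A dimmer probe set of Cycs differed by −0.13 and its arrays overlapped, with 4452 and 4094 in HFD fat, against 5368 and 4046 in chow fat. Another differed by −0.34 with the groups apart.

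All 17 genes of complex V lay below 0. The F1 part, which makes ATP, had a median of −0.32 over 5 genes, and the stalk and membrane subunits −0.32 over 9 genes. With the brightest probe set per gene, Atp5e, the epsilon subunit, differed most. It read 2413 and 2326 in HFD fat, against 3974 and 3043 in chow fat (−0.55, adjusted p = 0.0807). Dimmer probe sets of Atp5o (−0.93, against −0.38 in the brightest) and Atp5k (−0.68, against −0.47) differed more. A dim one of Atp5c1 differed by 0.13, against −0.51 in the brightest. The catalytic beta subunit Atp5b differed by −0.31 and the alpha subunit Atp5a1 by −0.18. The 3 genes Atp5g1, Atp5g2 and Atp5g3 encode the same mature subunit of the proton-driven ring and differed by −0.15, −0.18 and −0.13. For Atp5g1 and Atp5g2 the HFD arrays lay between the chow arrays, and without chow array 1 their differences turned to 0.11 and 0.04. Of the 17 genes 0 were called and 9 had an unadjusted p under 0.05 (background 12.3%).

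In complex IV, the subunits made in most tissues had a median close to those of complexes I and V. The isoforms of single tissues, some of them read by dim probe sets, ranged more widely. The 10 common subunits tested had a median of −0.30, with 9 below 0 and 5 at an unadjusted p under 0.05 (background 12.3%). Cox5b, a zinc-binding subunit, read 7444 and 6995 in HFD fat, against 10636 and 8846 in chow fat (−0.43, adjusted p = 0.0663). Cox4i1, the common form of the largest nuclear subunit, read 7745 and 8264 in HFD fat, against 10410 and 9293 in chow fat (−0.30, adjusted p = 0.116). Cox5a (−0.40), Ndufa4 (−0.36, a subunit of complex IV in spite of its name), Cox7a2 (−0.33), Cox8a (−0.31) and Cox6b1 (−0.25) were also lower on both HFD arrays than on both chow arrays. Cox6a1 differed by −0.07 and its groups overlapped, while its dimmer probe set differed by −0.33 with the groups apart. None of these genes was called.

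Cox7a1, the form of heart, muscle and brown fat, had the lowest difference of all 90 genes, each read by its brightest probe set. It read 120 and 101 in HFD fat, against 285 and 140 in chow fat. The groups were apart, but the chow mice read far apart, and the difference of −0.86 (95% interval −1.63 to −0.09) was not called (adjusted p = 0.162). Cox8b, another form of heart, muscle and brown fat, read 823 and 633 in HFD fat, against 1859 and 488 in chow fat. The HFD arrays lay between the chow arrays, so that its difference of −0.40 (adjusted p = 0.68) turned to 0.57 without chow array 1. Cox6a2, the muscle form of subunit 6a, read 70.1 and 72.9 in HFD fat, against 26.4 and 37.5 in chow fat. This was the largest positive difference (1.18, 95% interval 0.34 to 2.03, adjusted p = 0.0928). Both chow signals of Cox6a2 lay under the filter signal of 40.5, which the probe set passed on its mean over all arrays. The size of the difference thus rests on dim chow signals. The other Cox6a2 probe set did not pass the filter and had 6 arrays at the lower signal limit. Cox4i2 (−0.32, the lung form), Cox6b2 (−0.50, the testis form) and Ndufa4l2 (−0.47, known to be induced by low oxygen) were lower on both HFD arrays and were not called. Cox4i2 and Cox6b2 were dim too. Cox4i2 read 44.5 and 41.3 in HFD fat, against 60.1 and 47.8 in chow fat, near the filter signal. Cox6b2 read 45.0 and 68.3 in HFD fat, against 78.9 and 77.8 in chow fat. Cox7a2l, known for linking complexes III and IV into supercomplexes and shortened in the C57BL/6J strain, differed by 0.17 and its groups overlapped.

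**Figure D3:**
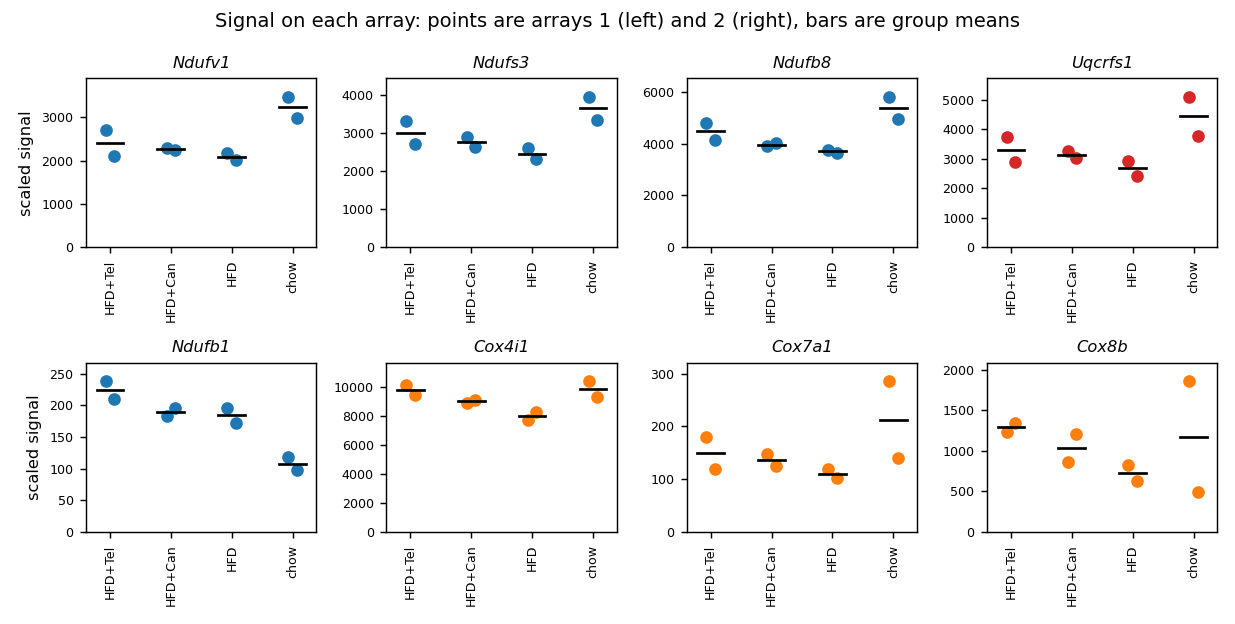
Scaled signal of 8 genes on each array, in arbitrary units from 0, with points for the arrays and bars for group means. Ndufv1, Ndufs3, Ndufb8 and Uqcrfs1 have their lowest group mean in HFD fat, Ndufb1 is highest in telmisartan fat with 238 and 209, and the chow points of Cox7a1 and Cox8b lie far apart.

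Where a gene had several probe sets past the filter, they were compared. Of 46 such genes, 6 had probe sets of opposite sign in HFD against chow: Atp5c1, Cox7a2l, Ndufab1, Ndufaf4, Ndufs4 and Ndufs8. For Ndufs8, a core subunit with 6 probe sets, the differences ran between −0.61 and 0.33. The 3 probe sets of Ndufv1 lay between −0.63 and −0.57 and the 2 of Ndufb8 between −0.53 and −0.40. The 5 probe sets of Ndufa7 ran between −0.64 and −0.02, and the lowest was called lower when every probe set was tested. For Uqcrc2 the probe sets differed by −0.78 and −0.54, and for Sdhd by −0.71 and −0.25, in both genes less in the brighter one. Cox7c was read by a dim probe set with 43 and 58.1 in HFD fat, against 42.8 and 31 in chow fat, and its difference of 0.46 has a 95% interval of −0.84 to 1.76.

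Lists of other genes that serve the chain were set beside it. Of 35 tested assembly factors that the symbol rule does not take (among them Cox10, Surf1 and Sco1), 31 lay below 0 with a median of −0.26, and 1 was called lower, a share near the 2.95% of all genes. This was Bcs1l, an assembly factor of complex III, with 245 and 179 in HFD fat, against 373 and 337 in chow fat (−0.76, adjusted p = 0.0414). Of 16 genes that feed electrons to ubiquinone or make it, 13 lay below 0 (median −0.35) and 2 were called lower (background 2.95%). Gpd2, the glycerol-3-phosphate dehydrogenase that passes electrons to ubiquinone, read 298 and 309 in HFD fat, against 797 and 694 in chow fat (−1.29, adjusted p = 0.00147). Coq4, needed for ubiquinone synthesis, read 92.5 and 103 in HFD fat, against 176 and 177 in chow fat (−0.85, adjusted p = 0.0309). In both genes the diets were well apart.

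Of the 19 nuclear regulators of these genes 12 lay below 0 (median −0.15). None was called, and 1 was lower at an unadjusted p under 0.05 (background 12.3%). This was Ppargc1b, the PGC-1 beta coactivator, at 168 and 142 in HFD fat, against 427 and 198 in chow fat (−0.91, adjusted p = 0.122). Nrf1 differed by 0.18, Gabpa by 0.36, Esrra (ERR alpha) by −0.24, Yy1 by −0.19 and Ppargc1a by −0.15. Of 17 genes of inner and outer membrane transport and mitochondrial mass, 14 lay below 0 (median −0.18). None was called, and 3 were lower at an unadjusted p under 0.05 (background 12.3%). Citrate synthase (Cs), a common measure of mitochondrial content, read 3303 and 2944 in HFD fat, against 5895 and 3758 in chow fat (−0.59, adjusted p = 0.107).

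Markers of other cells moved with the diet. Of 13 macrophage markers 12 were called higher in HFD than in chow fat (background 5.15%), with a median log2 difference of 1.49. Their summed signal was 54941 to 56863 in HFD fat, against 22057 to 24908 in chow fat. Of 8 endothelial markers 4 were called lower (Kdr, Tie1, Emcn and Esam, background 2.95%), and the median of the 8 was −0.63. Of 11 tested adipocyte markers 2 were called lower (Slc2a4 and Pparg, background 2.95%), and the median was −0.13. The summed signal of the adipocyte markers was 99684 to 105730 in HFD fat, against 98235 to 117650 in chow fat. Of 8 brown fat markers 4 were tested and 1, Otop1, was called higher (2.32, background 5.15%). Of these 4, 3 lay above 0 (median 0.64) and Ppargc1a lay below (−0.15). Ucp1, which defines brown fat, was at the lower limit on 6 of 8 arrays. Of 12 skeletal muscle markers 4 were tested and 1, Pvalb, was called higher (3.10, background 5.15%). Ckm, Mb and 6 others were too dim. The other 3 tested were Acta1 (−0.82, adjusted p = 0.11), Actn3 (−0.30) and Atp2a1 (−0.25), and the list's median was −0.28. Acta1 read 1312 and 843 in telmisartan fat, 893 and 518 in candesartan fat and 625 and 540.1 in HFD fat, against 1046 and 1009.5 in chow fat. Of 11 genes of testis and epididymis 9 were too dim and 2 had no single-symbol probe set. Of 8 mesothelial markers 0 were called by limma (0 at an unadjusted p under 0.05). The part of changes in cell makeup in the lower signals of the chain was not tested.

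**Figure D4:**
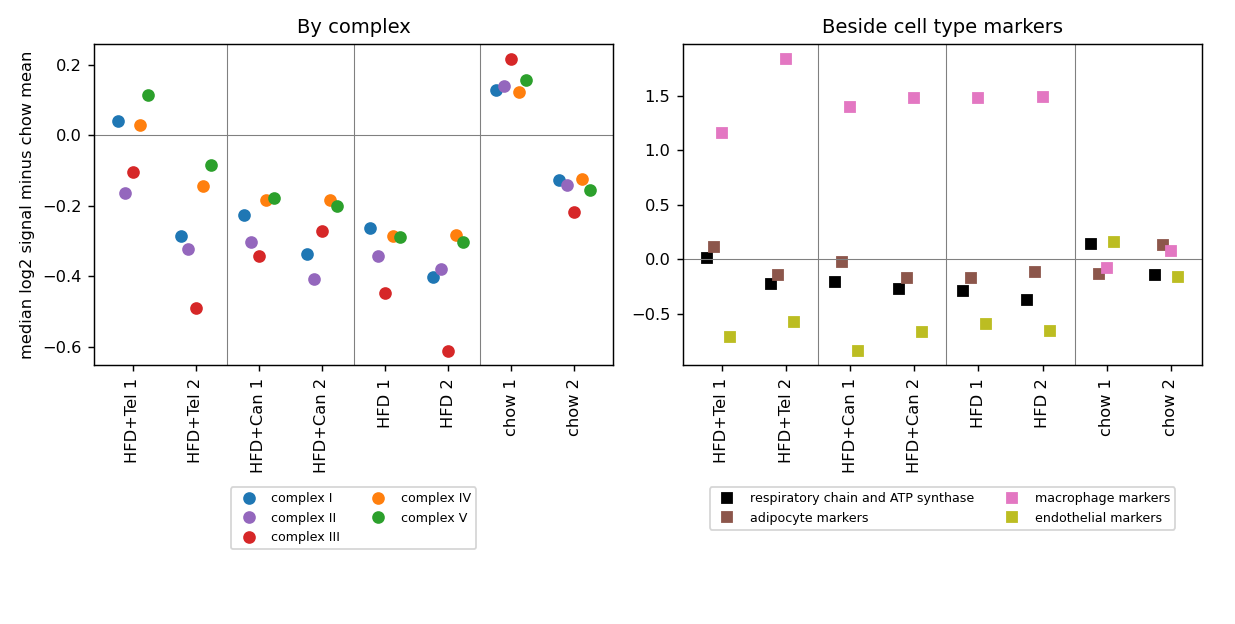
Median log2 signal on each array minus the mean of both chow arrays, for the genes of each complex (left) and for all 90 genes and 3 lists of cell type markers (right). Complex III is at −0.45 and −0.61 in HFD fat, and the macrophage markers are at 1.16 to 1.84 in all high-fat groups.

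Telmisartan was then compared with HFD without drug. Signals of 84 of 90 genes were on average higher in telmisartan fat (background 48.5%), with a median of 0.23, against −0.0078 over all genes. With quantile normalization the median was 0.14, which is 0.11 relative to all genes, against 0.24 in the main scaling. None was called (0% of all genes were called higher), while at an unadjusted p under 0.05 14 were higher (background 2.28%) and 0 lower (background 3.92%). Both telmisartan arrays lay above both HFD arrays for 57 genes (background 18.5%) and below them for 0 (background 19.5%). The median was 0.30 for complex III, 0.29 for complex V, 0.24 for complex I, 0.21 for complex IV and 0.13 for complex II. The telmisartan mice were unlike each other in these genes: array 1 exceeded array 2 in 79 of 90 genes, by a median of 0.23. Telmisartan array 1 was higher than both HFD arrays in 84 and 85 of 90 genes, and telmisartan array 2 in 63 and 77. Without telmisartan array 1 the median was 0.10, with 75 genes above 0, and without array 2 it was 0.37. For complexes III and V it was 0.12 and 0.17 without array 1, and 0.47 and 0.41 without array 2.

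The smallest p values against HFD were those of Atp5j2, Uqcr10 and Cox5b. Atp5j2, subunit f of ATP synthase, read 7621 and 6812 in telmisartan fat, against 5382 and 5598 in HFD fat (0.39, 95% interval 0.13 to 0.65, limma adjusted p = 0.766). Its other probe sets past the filter differed by 0.35 and, in a dim one, by −0.51. Uqcr10, a small complex III subunit, read 3132 and 2889.8 in telmisartan fat, against 2218 and 2039 in HFD fat (0.50, 0.17 to 0.83). Cox5b read 10021 and 8795 in telmisartan fat, against 7444 and 6995 in HFD fat (0.38, 0.11 to 0.65). In the 3 genes the telmisartan and HFD arrays were apart. Cox8b had the largest positive difference, with 1234 and 1349 in telmisartan fat, against 823 and 633 in HFD fat (0.84, 95% interval −0.31 to 1.99). The lowest difference, −0.79, was that of Cox7c, whose dim probe set read 14.8 and 56.3 in telmisartan fat, against 43 and 58.1 in HFD fat. On telmisartan array 1 the macrophage marker median was the lowest of the 6 high-fat arrays (1.16 above chow) and that of mesothelial markers was −1.92, against 1.84 and −0.30 on telmisartan array 2. Of the 11 adipocyte markers tested 10 lay above 0 in telmisartan against HFD (median 0.13), 0 of them called, and their median on telmisartan arrays 1 and 2 was 0.11 and −0.15 relative to chow. The part of these markers in the differences between the 2 mice and from HFD was not tested.

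Candesartan, at the same dose, was set against HFD in the same way. Signals of 80 of 90 genes were above 0 (background 51.1%), with a median of 0.10, against 0.0042 over all genes. With quantile normalization the median was 0.06, which is 0.04 relative to all genes, against 0.10 in the main scaling. None was called (0% of all genes), and 0 had an unadjusted p under 0.05 (background 0.481% higher and 0.766% lower). Both candesartan arrays exceeded both HFD arrays for 46 genes (background 17.9%) and lay below them for 2 (background 15.5%). Complex III had a median of 0.19, complexes I and V of 0.10 and 0.11, complex IV of 0.08 and complex II of 0.02. The smallest p was that of Atp5e, with 2978 and 3026 in candesartan fat, against 2413 and 2326 in HFD fat (0.34, 95% interval −0.04 to 0.72, limma adjusted p = 1). Uqcr10 differed by 0.26 and Cox4i1 by 0.17. Both drug groups were set against the same HFD arrays, so that their differences from HFD are not independent of each other. The same HFD arrays enter HFD against chow with the opposite sign. Lower values on the diet and higher values with a drug are therefore not independent either.

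The drugs were then compared directly, with the HFD arrays in the estimate of the spread and not in the difference. Signals of 76 of 90 genes were on average higher in telmisartan than in candesartan fat (background 49%), with a median of 0.13, against −0.0061 over all genes. With quantile normalization it was 0.07, which is 0.05 relative to all genes, against 0.14 in the main scaling. None was called (0% of all genes), while at an unadjusted p under 0.05 2 were higher (background 1.5%) and 0 lower (background 3.39%). Both telmisartan arrays exceeded both candesartan arrays for 38 genes (background 15.6%) and lay below them for 1 (background 16.6%). The 2 genes were Atp5j2 and Ndufa13. Atp5j2 read 7621 and 6812 in telmisartan fat, against 6005 and 5806 in candesartan fat (0.29, 95% interval 0.03 to 0.55). Other probe sets of Atp5j2 past the filter differed by 0.10 and, in a dim one, by −0.46. Ndufa13, a complex I subunit, read 5655 and 5722 in telmisartan fat, against 4778 and 4421 in candesartan fat (0.31, 0.02 to 0.59). Without telmisartan array 1, the median was 0.03 and 51 of 90 genes were higher in telmisartan fat, and without telmisartan array 2 they were 0.27 and 84. The 95% interval of a gene reached a median of 0.34 to each side, so that differences of the size of the medians could not be told from 0 gene by gene.

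**Figure D5:**
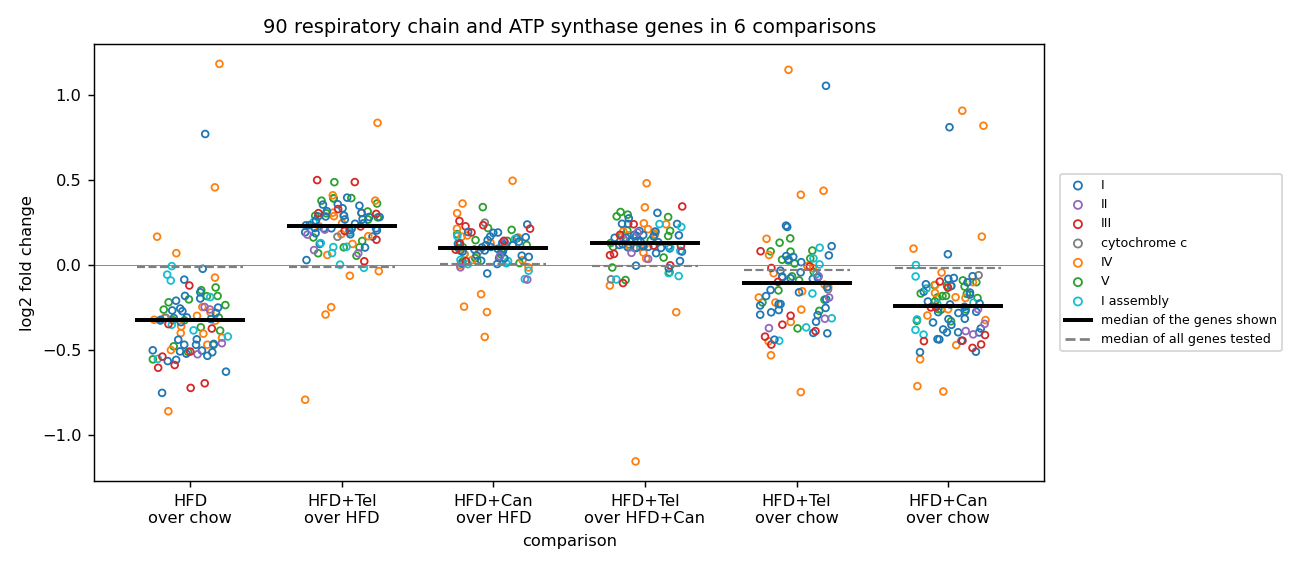
Log2 fold change of the 90 tested genes (points, coloured by complex) in the 6 comparisons, with their median (black) and that of all genes tested (dashed). The medians are −0.32 for HFD over chow, 0.23 and 0.10 for telmisartan and candesartan over HFD, 0.13 for telmisartan over candesartan, and −0.11 and −0.24 for the drug groups over chow.

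The drug groups were also set against chow, a comparison of diet and drug together. Signals of 63 of 90 genes were lower in telmisartan than in chow fat (background 53.5%), with a median of −0.11, and 0 were called lower (background 3.48%). Ndufb1 was the 1 gene called higher (background 4.96%), while at an unadjusted p under 0.05 9 genes were lower (background 12.5%) and 3 higher (background 12.1%). Both telmisartan arrays lay below both chow arrays for 20 genes (background 25.2%) and above them for 6 (background 22.4%). Telmisartan array 1 was higher than chow array 2 in 67 of 90 genes and lower than chow array 1 in 72. The direction of the median rests on single mice: it was 0.05 without chow array 1 and 0.02 without telmisartan array 2, against −0.27 without chow array 2 and −0.23 without telmisartan array 1, the last with 3 genes called lower. Complex V had a median of 0.0096, while complex III (−0.30) and complex II (−0.25) had the lowest medians. Complex III was at −0.13 without chow array 1 and −0.10 without telmisartan array 2, against −0.47 without chow array 2 and −0.49 without telmisartan array 1. Complex V ranged between −0.21 without chow array 2 and 0.13 without chow array 1. Cox7a2l, the supercomplex protein, read 2202 and 2249 in telmisartan fat, against 1778 and 1568 in chow fat, and was not called (0.41, adjusted p = 0.0726). Other probe sets of Cox7a2l past the filter differed by 0.25 and 0.20. With arrays centred on their median, the median of all genes in this comparison moved to 0.14 and that of the 90 genes to 0.07, which is −0.08 relative to all genes, and 88.5% of the calls over all genes were higher, against 58.8% in the main scaling. With quantile normalization the median of the 90 genes was −0.195, which is −0.192 relative to all genes, against −0.0766 in the main scaling.

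In candesartan against chow, signals of 83 of 90 genes were lower (background 52.3%) and 7 higher (background 47.7%), with a median of −0.24. Of these 0 were called lower (background 2.11%) and 23 had an unadjusted p under 0.05 (background 10.2%), while Ndufb1 was called higher (background 4.48%) and 2 genes were higher at an unadjusted p under 0.05 (background 11.1%). Both candesartan arrays lay below both chow arrays for 53 genes (background 28%) and above them for 4 (background 25.8%). The median was −0.10 without chow array 1 and −0.39 without chow array 2, and 2 genes were called lower without chow array 2 and 3 without either telmisartan array. With arrays centred on their median, 85.5% of the calls over all genes were higher, against 68% in the main scaling. With quantile normalization the median of the 90 genes was −0.259, which is −0.238 relative to all genes, against −0.219 in the main scaling. The complex III median was −0.41, that of complex II −0.37, that of complex I −0.27 and those of complexes IV and V −0.18 each. For complex III it was −0.13 without chow array 1, −0.27 without candesartan array 1 and −0.58 without chow array 2, and for complex V −0.04 without chow array 1 and −0.37 without chow array 2. Ndufb8 read 3904 and 4017 in candesartan fat, against 5814 and 4941 in chow fat (−0.44, adjusted p = 0.0755). Ndufv1 read 2286 and 2241 in candesartan fat, against 3479 and 2982 in chow fat (−0.51, adjusted p = 0.0827). Both drug groups and HFD were set against the same 2 chow mice.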

How the data were processed

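The authors deposited a linear signal intensity for each of 45101 probe sets on the 8 arrays, made with the array maker's GeneChip Analysis Suite software, per the labels' protocols and the series design text. For its algorithm version and its scaling no source was at hand. Because the highest 2%-trimmed mean of an array was 1.48 times the lowest, all arrays were brought to a common one. Signals under 6.69 (20th percentile) were raised to that limit before log2 transformation. The filter kept probe sets whose mean reached the 50th percentile (signal 40.5), with control probe sets left out, and the brightest single-symbol probe set was used per gene (11232 genes). Another 10 probe sets with several symbols, one of them fitting the rule, were left out. Symbols come from the platform annotation, which can be old.

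limma 3.58.1 (R 4.3.3) was fitted with 4 group means, 4 residual degrees of freedom and an intensity trend. Tests were two-sided, adjusted by Benjamini-Hochberg over 11232 genes and called under 0.05, and intervals are at 95%. Medians of complexes and lists are descriptions with no test. The number of arrays, 2 per group, limits the precision. Named genes are the called ones, the 3 of smallest p where fewer than 3 were called, the largest fall and rise of each complex, and the redox and isoform genes. Others were added after their values were seen. Genes and lists were chosen with earlier results of these data known. The fit was tested on simulated data. Same-numbered mice of different groups are not linked in the labels. Over all genes tested, the differences between arrays 1 and 2 correlated between groups at −0.0414 to 0.206. Among the 90 genes of the chain, array 1 exceeded array 2 in each group. It did so in 87 genes in chow, 79 in telmisartan, 65 in HFD and 60 in candesartan fat. The median differences were 0.29, 0.23, 0.07 and 0.04, and the cause of this shared direction was not tested. Figures were drawn with Python 3.11.15 and matplotlib 3.10.9. Alternative settings are given in the closing section.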

Additional observations from a re-analysis of the deposited data

How the results depend on the processing

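In HFD against chow most genes lay below 0 in each alternative run, while the number of genes called did not hold. Between 81 and 86 of 90 genes (or as many as were tested) lay below 0 under 12 alternatives without omission of an array, and 74 to 85 when an array was left out. In telmisartan against HFD 78 to 88 genes lay above 0 and 75 to 84 with an array left out, and in candesartan against HFD 72 to 86 and 64 to 81. With median centring the median of all genes was −0.11 in HFD against chow and 0.26 in telmisartan against HFD, a shift common to all genes, which leaves the chain's medians relative to it at −0.31 and 0.24. With quantile normalization these relative medians were −0.28 and 0.11, and that of telmisartan against candesartan was 0.05, against 0.14 in the main scaling. For candesartan against HFD the relative median was 0.04, against 0.10 in the main scaling. For telmisartan against chow it was −0.19, against −0.08. The count of genes called lower in HFD against chow, 4 in the report, was 19 with quantile normalization, 7 with only the 2 groups compared, 24 with the replicate number as a block, and 0 with median centring, no filter, the mean of a gene's probe sets or no intensity trend. It was 0 to 20 when an array was left out: 0 without chow 1, HFD 1, HFD 2, candesartan 1 or candesartan 2, 16 without chow 2, 19 without telmisartan 1 and 20 without telmisartan 2. Over the alternatives the limma adjusted p ranged from 0.0154 to 0.231 for Ndufb8, 0.00991 to 0.253 for Ndufv1, 0.0133 to 0.303 for Ndufs3, 0.00744 to 0.297 for Uqcrfs1 and 0.0203 to 0.231 for Ndufb1. Of genes called higher, 1 in the report, there were 0 with quantile normalization, median centring, no filter or only 2 groups, 2 with the replicate block (Cox6a2 beside Ndufb1), and 0 to 1 with an array left out. Genes called lower in telmisartan against chow numbered 4 with quantile normalization, 1 with every probe set tested, and 0 to 3 with an array left out. In candesartan against chow they numbered 2 with quantile normalization, 1 with the mean of probe sets, 4 with the replicate block and 0 to 3 with an array left out. Against HFD and between the drugs 0 genes were called by limma in the settings run. The replicate numbers carry no pairing in the labels, and a call gained under the block does not show one. The medians in HFD against chow ranged, with an array left out, from −0.51 to −0.22 for complex I, −0.49 to −0.24 for complex II, −0.77 to −0.31 for complex III, −0.45 to −0.15 for complex IV and −0.46 to −0.15 for complex V, with the ends set by the chow mice. Of 1035 repeats for named genes 929 kept direction and call, 61 lost and 41 gained a call, and 4 changed sign: Cox8b (−1.36 without chow 2 to 0.566 without chow 1), Atp5g1 (−0.403 to 0.109) and Atp5g2 (−0.4 to 0.035) in HFD against chow, and Atp5j2 in telmisartan against candesartan with the mean of its probe sets (−0.0233). The cause of these changes was not tested.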
